A study of Mus musculus with 24 samples.

Results

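Tiam1 and Tiam2, the guanine nucleotide exchange factors that switch on Rac GTPases, were followed in basal forebrain cholinergic neurons of the Ts65Dn mouse together with Rac1 and Rac3, the GTPases they act on, and Pak1 and Pak3, kinases that active Rac switches on in turn. The 6 genes were chosen by symbol from 55414 gene identifiers in the count table (Tiam1 is ENSMUSG00000002489, Tiam2 ENSMUSG00000023800, Rac1 ENSMUSG00000001847, Rac3 ENSMUSG00000018012, Pak1 ENSMUSG00000030774 and Pak3 ENSMUSG00000031284). All 6 passed the filter on low counts that left 19967 genes for testing. Tiam1 was already known to differ between genotypes on the control diet when the genes were chosen, so that comparison is described here without p-values for them, and no p-value is given for Tiam1 in any comparison that shares its libraries.

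Each library held RNA from about 500 neurons of the medial septum and vertical limb of the diagonal band, recognised by an antibody against choline acetyltransferase and cut out by laser from the brain of a male mouse aged about 6 months. The groups were Ts65Dn mice of dams fed choline chloride at 5.0 g/kg (supplemented, n = 8), their disomic 2N counterparts on that diet (n = 4), Ts65Dn mice of dams fed 1.1 g/kg (control, n = 6) and 2N mice on that diet (n = 6). Ts65Dn mice carry an extra chromosome made of a piece of chromosome 16, which holds Tiam1, and a piece of chromosome 17, which holds Tiam2. Rac1 on chromosome 5, Rac3 on chromosome 11, Pak1 on chromosome 7 and Pak3 on the X chromosome are present in the normal number in both genotypes. All mice came from Ts65Dn dams mated to C57Bl/6J Eicher x C3H/HeSnJ F1 males, the diets were given from conception to weaning, and every offspring ate the control chow afterwards. The design text states 6 mice per group, whereas the labels give 8 and 4 on the supplemented diet.

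Rac proteins are molecular switches that are off when bound to GDP and on when bound to GTP. Exchange factors such as Tiam1 and Tiam2 load GTP, GTPase-activating proteins end the signal, and GTP-bound Rac drives actin assembly through Pak kinases and the WAVE and Arp2/3 complexes. In neurons this pathway is known for shaping axons, dendrites and dendritic spines, where Tiam1 works beside NMDA and ephrin receptors.

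Because each pair of genes is a pair of paralogs, the stretch of coding sequence where the 2 copies are most alike is shown, with the longest identical run in capitals (GENCODE M21 transcripts, GRCm38, 5′ to 3′).
Tiam1: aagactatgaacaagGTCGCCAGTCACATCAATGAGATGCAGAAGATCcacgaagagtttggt
Tiam2: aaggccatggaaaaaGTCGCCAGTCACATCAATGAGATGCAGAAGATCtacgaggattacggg
Rac1: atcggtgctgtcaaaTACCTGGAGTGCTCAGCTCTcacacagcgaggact
Rac3: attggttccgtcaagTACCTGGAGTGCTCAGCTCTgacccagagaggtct
Pak1: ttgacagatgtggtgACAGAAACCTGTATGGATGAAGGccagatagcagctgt
Pak3: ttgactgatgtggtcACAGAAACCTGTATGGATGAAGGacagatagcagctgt
The run is 33 bases long in the Tiam pair, 20 in the Rac pair and 23 in the Pak pair. Over the aligned coding sequence the Tiam pair shared 62.7% of bases, the Rac pair 76.9% and the Pak pair 75.5%. Reads were 50 bases long, and 0 stretches of 50 bases were shared within any pair over all annotated transcripts, so no full-length, perfectly matching read fits both members of a pair. Expected counts held a fraction of a read, the mark of a read divided between places, in 18 of 24 libraries for Rac1, 3 for Pak3, 2 for Pak1, 1 for Tiam1 and 0 for Tiam2 and Rac3. Rac1 values therefore rest in part on how the authors' counting divided reads.

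The libraries held 4688258 to 13443438 counts (median 10010353), spread over 13125 to 22694 genes. Control-diet Ts65Dn library 3 (13125 genes) and supplemented Ts65Dn library 7 (13164 genes) were the least complex. Chat, which encodes choline acetyltransferase itself, had less than 1 CPM (counts scaled by library size) in 6 of 24 libraries, 3 of them control-diet Ts65Dn. The columns of supplemented Ts65Dn libraries 2 and 5 stand among those of the supplemented 2N group in the deposited table, against their labels. Grouped by column order, every group would hold the 6 mice that the design text states, so the 2 sources disagree on these 2 libraries. The labels were followed, and the grouping by column order was not fitted. Some results that use the 2 least complex libraries or supplemented Ts65Dn libraries 2 and 5 are also given without them.

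Per transcript length, Rac1 was the most abundant of the 6 genes, with a median of 83.3 TPM (abundance per transcript length) over the 24 libraries. Pak1 had a median of 47.9 TPM and Pak3 of 47.0 TPM, Tiam1 of 28.7 TPM, Rac3 of 7.0 TPM and Tiam2 of 2.76 TPM. The ranges of Rac1 (6.11 to 168 TPM), Pak1 (16.6 to 192 TPM), Pak3 (4.89 to 159 TPM) and Tiam1 (12.96 to 108 TPM) overlapped. Tiam1 was thus the more abundant of the 2 exchange factors by level, and Rac1 the more abundant of the 2 GTPases. Tiam2 rested on a median of 93 reads per library and Rac3 on 51 reads, against 1172 for Tiam1.

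Tiam1 RNA was highest in control-diet Ts65Dn libraries and lower in supplemented Ts65Dn libraries, while both 2N groups lay close to each other. Its levels were 125, 98.7, 200.0, 121, 162, 109, 166 and 152 CPM in supplemented Ts65Dn libraries 1 to 8. They were 83.6, 93.0, 105 and 73.7 CPM in supplemented 2N libraries 1 to 4. Of the supplemented Ts65Dn libraries, 7 of 8 lay above every 2N library, and library 2 lay inside the 2N range. With control chow Tiam1 stood at 443, 112, 536, 82.6, 252 and 335 CPM in Ts65Dn libraries 1 to 6. The 2N libraries 1 to 6 had 146, 126, 98.5, 89.2, 44.1 and 104 CPM. Ts65Dn libraries 1, 3, 5 and 6 lay above every 2N library, and libraries 2 and 4 lay inside the 2N range, so the Ts65Dn group fell into high and low values. Group means ± SD were 142 ± 34.1 CPM (supplemented Ts65Dn, n = 8), 88.8 ± 13.3 CPM (supplemented 2N, n = 4), 293 ± 180.0 CPM (control-diet Ts65Dn, n = 6) and 101 ± 34.7 CPM (control-diet 2N, n = 6). In order of mean the groups ran control-diet Ts65Dn, supplemented Ts65Dn, control-diet 2N and supplemented 2N, and the range of each overlapped the next.

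**Figure D1:**
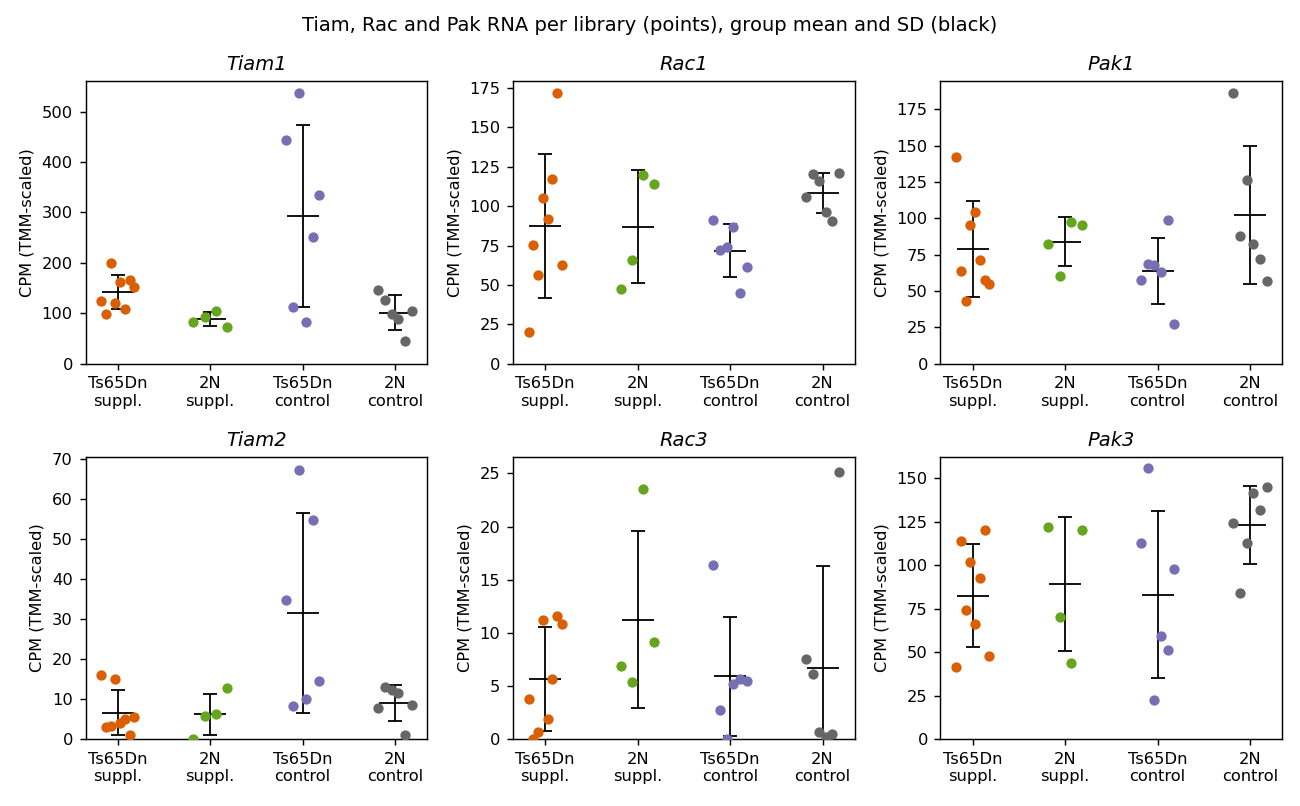
TMM-scaled CPM (linear axis) of each gene, 1 point per library, in 4 groups from left to right: supplemented Ts65Dn, supplemented 2N, control-diet Ts65Dn and control-diet 2N, with the group mean and SD in black. Tiam1 reaches 536 CPM and Tiam2 67.3 CPM in control-diet Ts65Dn library 3, and 4 of 6 libraries of that group lie above all control-diet 2N libraries for both genes.

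By CPM, Tiam2 RNA was scarce in all groups except control-diet Ts65Dn. It had 16.1, 3.19, 3.32, 15.2, 4.11, 5.03, 1.13 and 5.73 CPM in supplemented Ts65Dn libraries 1 to 8, against 0.143, 5.83, 6.29 and 12.8 CPM in supplemented 2N libraries 1 to 4. These groups overlapped, with 2 of 8 Ts65Dn libraries above all 2N libraries. With control chow it had 34.9, 8.45, 67.3, 9.98, 54.8 and 14.7 CPM in Ts65Dn libraries 1 to 6, and 7.74, 13.1, 12.4, 11.5, 1.07 and 8.64 CPM in 2N libraries 1 to 6. The libraries above the 2N range were again 1, 3, 5 and 6, the same libraries as for Tiam1. By TPM, libraries 1 and 5 (16.3 and 16.7 TPM) lay above every 2N library, the highest of which had 9.93 TPM. Libraries 3 and 6 (9.14 and 6.1 TPM) did not. Means ± SD in TPM on this diet were 8.92 ± 6.36 in Ts65Dn and 5.53 ± 3.31 in 2N libraries. Group means ± SD were 6.73 ± 5.68 CPM (supplemented Ts65Dn), 6.27 ± 5.19 CPM (supplemented 2N), 31.7 ± 25.0 CPM (control-diet Ts65Dn) and 9.08 ± 4.46 CPM (control-diet 2N), so the 3 lower groups overlapped.

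Rac1, the widely expressed Rac GTPase, had 20.2, 75.2, 56.5, 105, 92.0, 117, 172 and 63.0 CPM in supplemented Ts65Dn libraries 1 to 8 and 47.7, 65.6, 120.0 and 114 CPM in supplemented 2N libraries 1 to 4. Those ranges overlapped. Control-diet values were 91.0, 72.0, 74.3, 86.7, 45.0 and 61.6 CPM in Ts65Dn libraries 1 to 6 and 106, 120.4, 116, 96.2, 90.7 and 121 CPM in 2N libraries 1 to 6. Here 5 of 6 Ts65Dn libraries lay below every 2N library, and library 1 overlapped the lowest 2N library. Rac3, a GTPase close to Rac1 and best known from the nervous system, was at 0 reads in supplemented Ts65Dn library 2 and control-diet Ts65Dn library 3. Its means ± SD were 5.71 ± 4.89 CPM (supplemented Ts65Dn), 11.3 ± 8.35 CPM (supplemented 2N), 5.92 ± 5.56 CPM (control-diet Ts65Dn) and 6.73 ± 9.58 CPM (control-diet 2N), with overlap between all groups.

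Pak1 and Pak3 are kinases that GTP-bound Rac releases from self-inhibition. Pak1 ran from 42.9 CPM (median 67.5) to 142 CPM in supplemented Ts65Dn libraries and had 82.6, 60.5, 97.5 and 95.7 CPM in supplemented 2N libraries 1 to 4. In control-diet Ts65Dn libraries it ran from 27.6 CPM (median 65.7) to 98.8 CPM, against 57.2 CPM (median 85.1) to 187 CPM in control-diet 2N libraries. The Pak1 ranges overlapped on both diets, with every control-diet Ts65Dn library below the 2N mean. Pak3, which is mostly neuronal, ran from 41.5 CPM (median 83.5) to 120.4 CPM in supplemented Ts65Dn libraries and had 122, 70.4, 43.6 and 120.3 CPM in supplemented 2N libraries 1 to 4. It ran from 22.4 CPM (median 78.6) to 156 CPM in control-diet Ts65Dn libraries and from 84.0 CPM (median 128) to 145 CPM in control-diet 2N libraries. Control-diet Ts65Dn library 3, the highest for both Tiam genes by CPM, was the lowest of its group for Pak3. By TPM library 5 was the highest for Tiam1 (108 TPM) and Tiam2 (16.7 TPM). Library 3 had 53.8 TPM for Tiam1 and 9.14 TPM for Tiam2, and was again lowest for Pak3 (4.89 TPM).

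The effect of trisomy was tested on the supplemented diet, in 12 libraries that did not enter the control-diet comparison that had picked out Tiam1. Earlier results of these data were known when the genes were chosen. Tiam1 was higher in Ts65Dn libraries, with a mean of 7.11 ± 0.35 log2 CPM (SD, n = 8), against 6.46 ± 0.22 log2 CPM in 2N libraries (SD, n = 4). The difference was 0.65 log2 units (1.57-fold), all 8 Ts65Dn libraries were above the 2N mean, and the exact two-sided permutation test over 495 splits gave p = 0.00808, unadjusted and 1 of 6 such tests. It was 0.0152 without the 2 least complex libraries and 0.0143 without supplemented Ts65Dn libraries 2 and 5, both by the exact permutation test. Across all genes the edgeR quasi-likelihood test did not call it: its log2 fold change was 0.67 ± 0.35 (SE), with a 95% interval from -0.03 to 1.38 and an adjusted p of 0.574. On the log2(TPM + 1) scale the difference was 0.53 and the exact permutation p was 0.263, so that call was lost. The SD there was 0.78 in Ts65Dn and 0.61 in 2N libraries, wider than in log2 CPM. On that scale the median difference of all tested genes was -0.40, against -0.04 in log2 CPM. Tiam1 lay 0.93 above the median gene in TPM and 0.69 above it in CPM, and these distances were not tested.

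For the other 5 genes no difference between genotypes was detected on the supplemented diet by either test. edgeR called 0 of the 6 genes, where it called 0.18% of all genes tested. Tiam2 had a log2 fold change of 0.10 ± 0.89 (95% interval -1.69 to 1.89, edgeR adjusted p = 1). That interval includes both 1.5-fold, the ratio of 3 gene copies to 2, and no difference. Rac1 had 0.01 ± 0.36 (-0.72 to 0.74), Pak1 -0.09 ± 0.36 (-0.81 to 0.63) and Pak3 -0.11 ± 0.37 (-0.86 to 0.63). Rac3 had -0.98 ± 1.27, with an interval from -3.55 to 1.59 that leaves its direction unknown. By the exact permutation test, p was 0.19 for Rac3 (difference -1.56 log2 CPM), the smallest of the 5, and 0.675 for Tiam2 (difference 0.51). Without supplemented Ts65Dn libraries 2 and 5 the Rac3 difference was -0.79 (exact permutation p = 0.405).

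On the control diet, the comparison that had picked out Tiam1, its fitted log2 fold change was 1.53 ± 0.33 (SE, 2.89-fold) and that of Tiam2 was 1.80 ± 0.86 (3.48-fold). As a difference of group means, Tiam1 had 1.325 in log2 CPM and 0.763 in log2(TPM + 1). The median gene had -0.208 and -0.283 on those scales. The GTPases and kinases had negative values: -0.60 ± 0.34 for Rac1, -0.18 ± 1.24 for Rac3, -0.68 ± 0.34 for Pak1 and -0.57 ± 0.35 for Pak3. Of the 6 genes, edgeR called 1, Tiam1, in a comparison that called 0.336% of all genes, and since the choice of genes used this contrast nothing is read from that count. Tiam1 lost its call without Ts65Dn library 3 (1.27), without 2N library 3 (1.53) or without 2N library 5 (1.38), but its value stayed positive. It was also not called with a glial marker score in the model (0.92) or with limma-voom (0.96), which gave 1.19 for Tiam2.

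**Figure D2:**
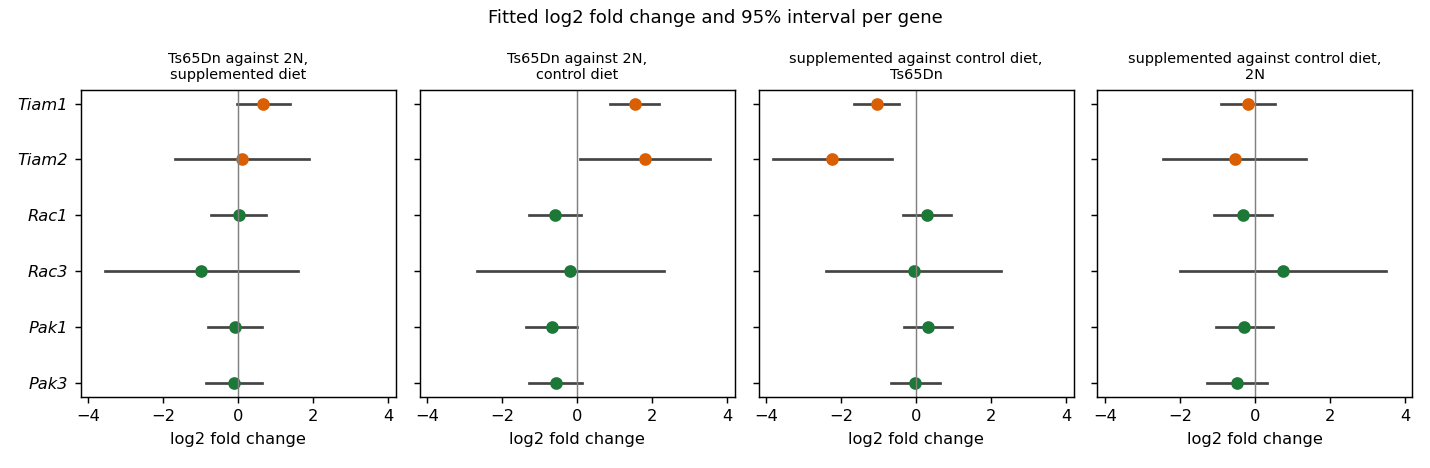
Fitted log2 fold change (point) and 95% interval (line) of each gene in 4 comparisons, from the edgeR fit of all 24 libraries; the Tiam genes are orange and the Rac and Pak genes green. The points of Tiam1 and Tiam2 stand at 1.53 and 1.80 in Ts65Dn against 2N on the control diet and at -1.05 and -2.23 in supplemented against control-diet Ts65Dn. These panels share the control-diet Ts65Dn libraries that picked out Tiam1, so its lines there show spread and are no test.

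Maternal choline supplementation was compared with the control diet within each genotype. In Ts65Dn libraries Tiam1 had a log2 fold change of -1.05 ± 0.30, and all 8 supplemented libraries lay below the control-diet mean, although inside the control-diet range. Tiam2 had -2.23 ± 0.79 (-3.82 to -0.64), with 6 of 8 supplemented libraries below every control-diet library, and was not called (edgeR adjusted p = 0.248). Without the 2 least complex libraries these values were -0.81 for Tiam1 and -1.68 for Tiam2, and Tiam1 had -0.68 with the glial marker score and -0.55 with limma-voom. The first part of the animal number, here the ID prefix, moved with diet, since 1 of 12 supplemented and 8 of 12 control-diet libraries had prefix 17. Within prefix 16 (2 supplemented against 2 control-diet Ts65Dn libraries) the difference in log2 CPM was -0.73 for Tiam1 and -2.72 for Tiam2, and within prefix 17 (1 against 4) it was -0.71 for Tiam1 and -2.21 for Tiam2. Cholinergic markers moved the other way in this comparison, with 12 of 12 positive, a median of 1.30 beside 0.04 over all tested genes, and 0 called (6 at an unadjusted edgeR p under 0.05). Their summed level ran from 336 to 520 CPM in supplemented and from 57.2 to 311 CPM in control-diet Ts65Dn libraries, without overlap, and their part in the Tiam values was not tested. Rac1 (0.29 ± 0.32), Rac3 (-0.06 ± 1.16), Pak1 (0.31 ± 0.32) and Pak3 (-0.02 ± 0.33) were not called either, with edgeR adjusted p-values of 0.872 to 0.998. edgeR called 0 of the 5 genes given a p-value, where 0.13% of all genes were called. This comparison and the control-diet genotype comparison share the 6 control-diet Ts65Dn libraries, so their opposite signs are not separate results.

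In 2N mice the diets gave values near 0 for Tiam1 (-0.19 ± 0.36) and an uncertain one for Tiam2 (-0.53 ± 0.95). Rac1 had -0.32 ± 0.38, Rac3 0.74 ± 1.37, Pak1 -0.28 ± 0.38 and Pak3 -0.47 ± 0.40, and the 5 genes other than Tiam1 had edgeR adjusted p-values of 1. None was called, and 0.00501% of all genes were. In this comparison 10 of 12 cholinergic markers were positive (median 0.53) and 10 of 10 glutamatergic markers negative (median -1.81). The median over all tested genes was -0.06, and none of these markers was called. The genotype by diet interaction asks whether the genotype effect differed between diets. It was -0.86 ± 0.46 for Tiam1, -1.70 ± 1.20 for Tiam2, 0.61 ± 0.50 for Rac1, -0.80 ± 1.79 for Rac3, 0.59 ± 0.50 for Pak1 and 0.45 ± 0.51 for Pak3. The Tiam1 value was -0.21 with the glial marker score and -0.34 with limma-voom, and that of Tiam2 -0.68 with limma-voom. None of the 5 genes given a p-value was called (edgeR adjusted p from 0.827 to 1), against 0.00501% of all genes, so a difference of the genotype effect between diets was not detectable for them.

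The summed CPM of glutamatergic neuron markers was highest in 3 of the 4 control-diet Ts65Dn libraries with high Tiam RNA. The summed level of 10 such markers was 596, 553, 4102, 336, 1592 and 1708 CPM in control-diet Ts65Dn libraries 1 to 6, against 280, 291, 743, 1060, 228 and 253 CPM in control-diet 2N libraries 1 to 6. It ran from 134 to 650 CPM in supplemented Ts65Dn libraries and from 125 to 334 CPM in supplemented 2N libraries, where Slc30a3 and Neurod6 were at 0 throughout. Camk2a alone gave 2541, 1333 and 1362 CPM of the sums in control-diet Ts65Dn libraries 3, 5 and 6. The mean log2 CPM of the 10 markers, each relative to its mean over the 24 libraries, was 3.339, 1.136 and 2.605 there. By that measure control-diet 2N libraries 3 and 4 had 2.844 and 2.147, so the order differed from that of the sums. Slc17a7, the vesicular glutamate transporter of cortical and hippocampal neurons, had 47.5, 798, 89.5 and 107 CPM in the libraries high for Tiam1 and Tiam2 by CPM (1, 3, 5 and 6), and 15.6 and 0 CPM in libraries 2 and 4. Slc17a6, also on the glutamatergic list, went the other way. It had 0, 1.69, 0.0896 and 2.06 CPM in libraries 1, 3, 5 and 6, and 19.0 and 26.9 CPM in libraries 2 and 4. In libraries 1, 3, 5 and 6 Chat had 13.8, 0, 0.896 and 0.543 CPM, against 18.1 and 16.1 CPM in libraries 2 and 4. Slc18a3, also on the cholinergic list, had 5.69, 0, 0 and 2.06 CPM in libraries 1, 3, 5 and 6, and 0 CPM in libraries 2 and 4. Summed over the 12 tested cholinergic markers, libraries 1, 3, 5 and 6 had 311, 57.2, 264 and 226 CPM. Libraries 2 and 4 had 294 and 297 CPM. The summed level of 12 tested cholinergic markers ran from 57.2 to 311 CPM in control-diet Ts65Dn and from 281 to 372 CPM in control-diet 2N libraries, and that of 10 oligodendrocyte markers from 734 to 4067 CPM in control-diet Ts65Dn and from 2988 to 3964 CPM in control-diet 2N libraries. Of the glutamatergic markers 1 of 10, Camk2a, was called between genotypes on the control diet, where 0.336% of all genes were called. That call was lost in 8 of 12 fits that left out 1 library each. Of the 10 markers 6 were positive and 4 negative, with 60.0% positive against 49.0% of all tested genes. Their median was 0.63, beside -0.02 over all tested genes. Between genotypes on the supplemented diet 6 of the 10 were also positive, with 0 called. The median there was 0.64 beside 0.09 over all tested genes, and Camk2a had 0.92 ± 0.48. The part of these markers in the Tiam values was not tested, and in RNA from pooled cells a change in cell mixture and a change in RNA per cell cannot be told apart.

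**Figure D3:**
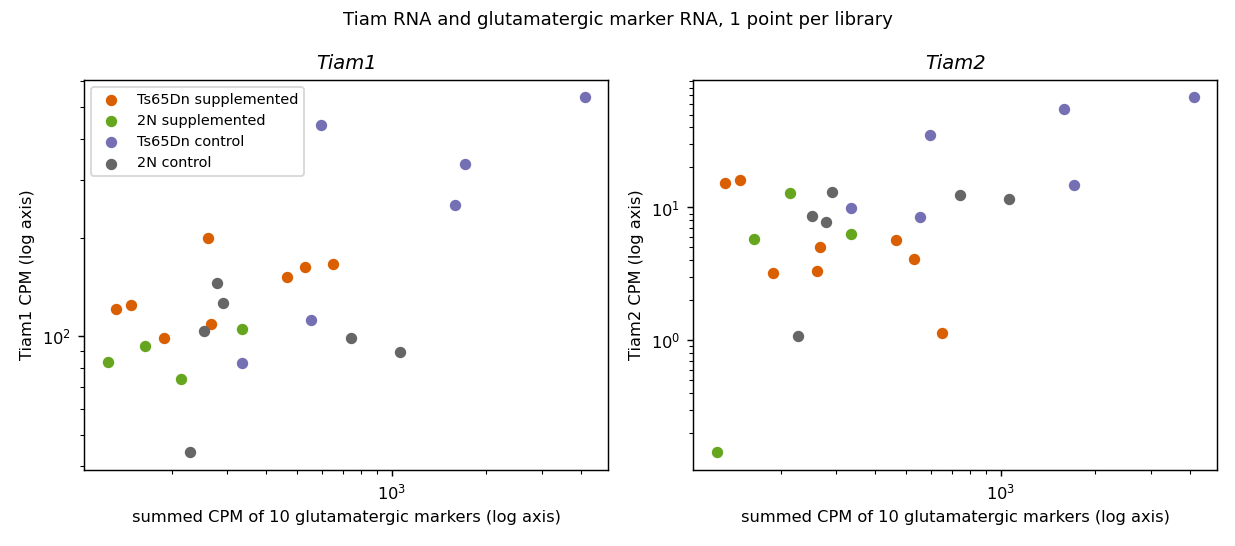
CPM of Tiam1 (left) and Tiam2 (right) against the summed CPM of 10 glutamatergic neuron markers, both axes logarithmic, 1 point per library, coloured by group. Control-diet Ts65Dn libraries 3, 5 and 6 lie at marker sums of 4102, 1592 and 1708 CPM, beyond the other libraries, with Tiam1 at 536, 252 and 335 CPM. Camk2a alone gives 2541, 1333 and 1362 CPM of these sums.

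Tiam1 and Tiam2 were set beside the triplicated genes next to them, to show how far the values are shared along the extra chromosome. On the supplemented diet 9 of the 12 nearest tested genes around Tiam1 had positive log2 fold changes, with a median of 0.65, and Tiam1 itself had 0.67. Over all tested genes 54.0% were positive on that diet, with a median of 0.09. Among the neighbours Grik1, a kainate receptor subunit, had 0.66, Sod1, superoxide dismutase, 0.52, and Scaf4, an RNA polymerase-binding factor, 0.74. In the control-diet comparison 10 of 12 were positive with a median of 0.37, beside 49.0% positive and a median of -0.02 over all tested genes. The highest neighbour value was 1.25 ± 2.17 (SE) for Map3k7cl, which had a median of 0 TPM, below the 1.53 ± 0.33 of Tiam1. Tiam1 was chosen with its value in this comparison known, so its place above the neighbours there is not a separate result. Around Tiam2, 6 of 7 neighbours were positive on the supplemented diet, with a median of 0.44 against 0.10 for Tiam2. In the control-diet comparison 7 of 7 were positive with a median of 0.63 and a highest value of 0.76 ± 1.43 (SE, Tfb1m), below the 1.80 ± 0.86 of Tiam2. None of the 19 neighbours was called on either diet, where 0.18% (supplemented) and 0.336% (control) of all genes were, so little can be read from that count. In supplemented against control-diet Ts65Dn libraries the neighbours had medians of -0.08 (12 around Tiam1) and -0.18 (7 around Tiam2), against -1.05 for Tiam1 and -2.23 for Tiam2, and the differences between gene and neighbours were not tested.

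**Figure D4:**
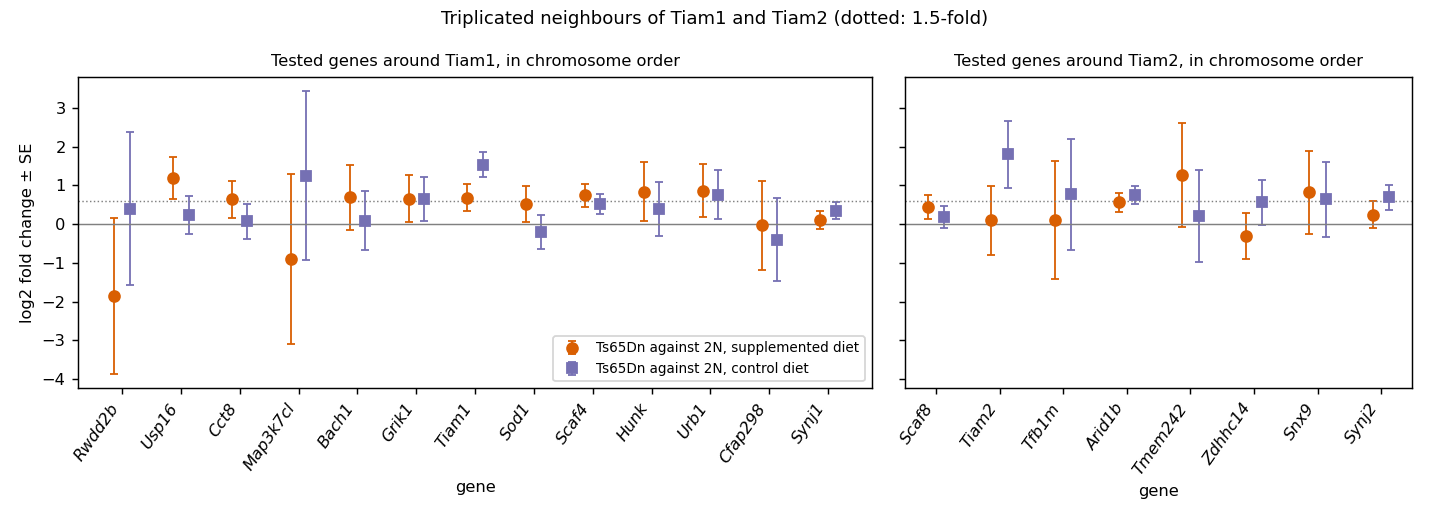
Log2 fold change ± SE of Ts65Dn against 2N on the supplemented (orange circles) and control diet (purple squares) for the tested genes around Tiam1 and Tiam2, in chromosome order; the dotted line marks 1.5-fold. The control-diet points of Tiam1 (1.53) and Tiam2 (1.80) lie above those of all their neighbours. Tiam1 was picked out by that comparison, so its rank there is no test. On the supplemented diet Tiam1 (0.67) lies near its neighbours' median (0.65).

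The wider Rac pathway was read from 5 lists of 117 genes, of which 116 were tested. On the supplemented diet edgeR called none of these genes between Ts65Dn and 2N, and list medians ran from -0.16 (Tiam-binding receptors and scaffolds) to 0.04 (Rac activators), beside 0.09 over all tested genes. The smallest p-values belonged to Pak6, a group II Pak kinase (1.53 ± 0.49, edgeR adjusted p = 0.279), and Adgrb1, a receptor that binds Tiam1 (0.74 ± 0.28, edgeR adjusted p = 0.424). Of 31 Rac activators, the Tiam genes included, 16 were positive on that diet.

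Among Rac inactivators on the control diet, Arhgap33, a GTPase-activating protein, rose by 1.77 ± 0.43 in Ts65Dn mice (edgeR adjusted p = 0.0486). It ran from 45.0 CPM (median 104) to 161 CPM in Ts65Dn libraries and from 16.0 CPM (median 25.2) to 60.0 CPM in 2N libraries, with overlap. Camk2a, a synaptic kinase that phosphorylates Tiam1 and is also on the glutamatergic list, rose by 1.85 ± 0.45 (edgeR adjusted p = 0.0472), with 267 CPM (median 896) to 2541 CPM in Ts65Dn libraries and 136 CPM (median 198) to 681 CPM in 2N libraries. Both calls were lost in 8 of 12 fits that left out 1 library each, namely Ts65Dn 3, 5 or 6 or 2N 1, 2, 3, 5 or 6. Both were also lost with the glial marker score, ID prefix as a factor, limma-voom or without the 2 least complex libraries. Over the 12 fits Arhgap33 kept at least 1.59 and Camk2a at least 1.38. Tiam1 and these 2 were the 3 called genes of the lists, where 0.336% of all genes were called. Tiam1 was chosen with its difference here known, and the lists with earlier results of these data known. Nothing is therefore read from that count. Among genes that did not pass, Dstn, which severs actin filaments, had -1.98 ± 0.52 (edgeR adjusted p = 0.0898) and Baiap2, a Rac partner in the WAVE pathway, had 1.25 ± 0.38 (edgeR adjusted p = 0.177).

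In Ts65Dn mice edgeR called 2 of the 21 Tiam-binding receptors and scaffolds lower with supplementation than on the control diet, in a comparison that called 0.13% of all genes. Camk2a fell by 1.98 ± 0.41 on the log2 scale (edgeR adjusted p = 0.0212), with 84.2 CPM (median 192) to 601 CPM in supplemented and 267 CPM (median 896) to 2541 CPM in control-diet libraries. Grin2a, an NMDA receptor subunit, fell by 1.37 ± 0.31 (edgeR adjusted p = 0.0464), with 35.1 CPM (median 67.1) to 145 CPM in supplemented and 120 CPM (median 194) to 269 CPM in control-diet libraries. The ranges of both genes overlapped, and some calls rested on single libraries. That of Camk2a was lost in 7 of 14 fits, without supplemented library 1, 3, 4 or 6 or control-diet library 3, 5 or 6, with values of -2.25 to -1.51 (log2) over the 14 fits. That of Grin2a was lost in 10 of 14 fits, without supplemented library 1, 2, 3, 4, 6, 7 or 8 or control-diet library 1, 5 or 6, with values of -1.57 to -1.25. Both calls were also lost with the glial marker score, ID prefix as a factor or limma-voom, and that of Grin2a without the 2 least complex libraries. Of the 21 receptors and scaffolds 15 were negative, with a median of -0.22 beside 0.04 over all tested genes. Of the 10 glutamatergic markers, Camk2a among them, 9 were negative in this comparison, with a median of -2.60, and 2 were called, and the part of these markers in the list was not tested. Among other exchange factors, Kalrn had -0.79 ± 0.20 and Arhgef7, which binds Pak kinases, had -1.21 ± 0.31 (edgeR adjusted p = 0.106 for each). In 2N mice none of the listed genes was called between diets, and list medians ran from -0.20 to 0.16.

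**Figure D5:**
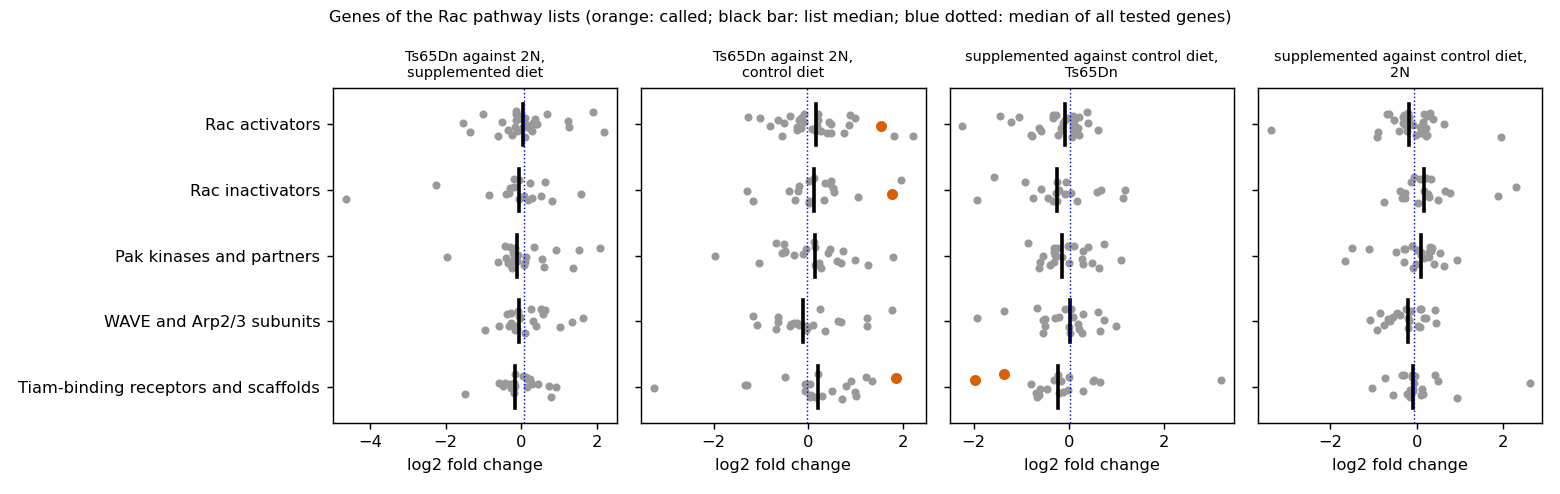
Log2 fold changes of the tested genes of 5 Rac pathway lists in 4 comparisons, 1 point per gene; orange points were called by edgeR, black bars are list medians and the blue dotted line is the median of all tested genes. The 3 called genes in Ts65Dn against 2N on the control diet are Tiam1, Arhgap33 and Camk2a, and the 2 in supplemented against control-diet Ts65Dn are Camk2a and Grin2a.

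Among 5542 genes searched, those whose levels followed Tiam1 closely over the 24 libraries included Sipa1l1 (Pearson r = 0.903), Shank1 (0.855), Chd3 (0.841) and Agap2 (0.821). Sipa1l1 and Shank1 encode proteins of the postsynaptic density, Agap2 a GTPase-related signalling protein and Chd3 a chromatin remodeller. Without the 2 least complex libraries these r values were 0.869, 0.811, 0.784 and 0.765. For Tiam2 the closest included Socs7 (0.733), the highest, Actl6b (0.695), Gabpb2 (0.694) and Rtn4rl1 (0.694), so no gene followed Tiam2 as closely as Sipa1l1 followed Tiam1. These values describe libraries that share depth, RNA quality and cell mixture, and they were not tested.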

How the data were processed

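Members and gene lists were chosen with earlier results of these data known. Per the submitters' processing notes, reads were trimmed with Trimmomatic 0.39, aligned with STAR and quantified with RSEM; no version of STAR or RSEM is given in these sources, and GRCm39 and mm10 are named without a role, so no coordinates are given. The deposited tables hold RSEM expected counts without normalization and the authors' TPM. Symbols came from GENCODE M21 (52133 of 55414 identifiers). Whether counting used strand is not given.

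Expected counts were rounded, filtered with filterByExpr (minimum count 10), TMM-scaled and tested with edgeR 4.0.16 (R 4.3.3) in 1 fit of 24 libraries, two-sided, Benjamini-Hochberg over 19967 genes, called at an adjusted p under 0.05. The script was tested on simulated data. The biological coefficient of variation was 1.4. Log2 CPM used a prior count of 2. Exact permutation tests were unadjusted. No litter is labelled, although dams received the diet, so p-values leave litter out of account. Named genes were the 6 members, up to 4 called genes of each list and comparison or otherwise up to 2 of smallest p, the 6 nearest tested protein-coding neighbours on each side, and the 5 closest genes by r; some genes so picked and 1 list are not reported here. Alternatives used DESeq2 1.42.0, limma-voom (limma 3.58.1), covariates, filters and left-out libraries.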

Additional observations from a re-analysis of the deposited data

Results flagged for a closer look

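Tiam2 in control-diet 2N library 5 stood apart from the rest of its group. Its level was 0.36 log2 CPM (1.07 CPM, from 8 reads), the lowest of the 6 libraries, and its gap to the next library was 0.779 of the group's range, above the critical value of 0.625. Of 24 combinations of a gene and a group examined this was the 1 that stood out, and chance alone gives about 5%. The same library was also the lowest of its group for Tiam1 (44.1 CPM).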

How the results depend on the processing

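In Ts65Dn against 2N on the supplemented diet, genotype calls among all genes numbered 36, and 542 with the DESeq2 Wald test, 55 with limma-voom, 200 without a filter, 62 without the 2 least complex libraries and 150 without supplemented Ts65Dn libraries 2 and 5 (an alternative chosen after seeing the data). They ran from 0 to 72 when 1 library at a time was left out. On the control diet there were 67 calls, and 459 (DESeq2 Wald), 0 with the glial marker score, 28 with ID prefix, the first part of the animal number, as a factor, 3 (limma-voom), 256 (no filter) and 4 (without the least complex libraries), or 4 to 127 with 1 library left out. The count of called members there was 1, but 0 with the glial score, limma-voom or without the least complex libraries, and 0 to 1 with 1 library left out. Supplemented against control-diet Ts65Dn gave 26 calls, and 349 (DESeq2 Wald), 15 (ID prefix), 4 (limma-voom), 218 (no filter, with 1 member, Tiam1), 77 (without the least complex) and 69 (without supplemented Ts65Dn 2 and 5), or 12 to 80 with 1 library left out. Of these fits with 1 library left out, the one without control-diet Ts65Dn library 4 called 1 member, Tiam1 (-1.24), and the others 0. In 2N the diets gave 1 call, and 286 (DESeq2 Wald), 0 (glial score), 7 (limma-voom), 33 (no filter) and 2 (without the least complex), or 0 to 2 with 1 library left out. The interaction gave 1 call, and 366 (DESeq2 Wald), 18 (glial score), 12 (ID prefix), 0 (limma-voom), 125 (no filter), 11 (without the least complex) and 24 (without supplemented Ts65Dn 2 and 5), or 1 to 12 with 1 library left out. The cause of these shifts was not tested.

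The log2 fold changes of Tiam1 kept their sign in every fit run, and so did those of Tiam2 except on the supplemented diet, where Tiam2 had -0.18 with ID prefix and -0.31 to 0.72 with 1 library left out. Values near 0 changed sign. On the supplemented diet, Rac1 had -0.19 without the least complex libraries, -0.0907 with ID prefix, -0.15 with limma-voom and -0.19 to 0.20 with 1 library left out, Pak1 had -0.26 to 0.016 and Pak3 -0.34 to 0.072 with 1 left out and 0.012 with ID prefix. On the control diet Rac3 had 0.071 without the least complex libraries, 0.046 with the glial score, 0.76 with limma-voom and -0.80 to 0.96 with 1 left out. In supplemented against control-diet Ts65Dn, Rac3 had 0.012 without a filter, 0.30 without supplemented Ts65Dn 2 and 5, 0.34 with ID prefix and -0.30 to 0.56 with 1 left out. There Pak1 had -0.048 with ID prefix, and Pak3 had 0.016 with DESeq2 size factors, 0.015 in the DESeq2 Wald test, 0.033 without a filter and -0.19 to 0.26 with 1 left out. The Rac3 interaction was 0.16 with ID prefix.

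The Tiam1 difference on the supplemented diet was 0.53 at log2(TPM + 1), 0.54 at log2(TPM + 0.1) and 0.61 within ID prefix 16 (2 libraries against 2, where the smallest exact p is 0.333), none past the threshold, and it ran from 0.56 to 0.73 with 1 library left out, with exact permutation p from 0.00606 to 0.0303. For Tiam2 it was -0.24 and -0.085 on those TPM scales, -1.80 within prefix 16 and -0.62 to 1.12 with 1 library left out. Within prefix 16 Rac1 had 0.28 and Pak3 0.54, and with 1 library left out Rac1 had -0.35 to 0.17 and Pak3 -0.39 to 0.11. No paired analysis was possible because the replicate numbers follow the order of deposit and no label pairs single animals of different groups. The ID prefix is shared by several animals of a group and was fitted as a factor instead. At these depths Tiam2 and Rac3 were limited by reads, with 2 or fewer in some libraries.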

Other observations

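Over the 24 libraries, with group means subtracted, the 6 genes were compared in 15 pairs. Tiam2 and Pak3 had a Pearson r of -0.472 (permutation p = 0.0311, adjusted p = 0.303 over the pairs) and a Spearman rho of -0.481 (permutation p = 0.0364, adjusted p = 0.204). Their r was -0.485 without the 2 libraries farthest for Tiam2 and -0.377 without the 2 least complex libraries. Pairs with Tiam1 are given no p-value, and none of the others passed the adjustment.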
